A study of Mus musculus with 143 samples.

Results

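The regions described here are candidate enhancers of the deposited class Enh_K4me1_K27ac, whose name carries H3K4me1 and H3K27ac but, unlike that of the largest class, Enh_K4me1_K27ac_PolII, not RNA polymerase II. Members were the regions whose class was exactly that name, 2646 of the 12897 regions tested, or 20.5%. All 2646 were 400 bp long and they lay on 20 chromosomes. The class name was not checked against the histone marks themselves, and the cells in which the marks were mapped are not given in the sources used here.

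Activity was measured by capSTARR-seq in P5424, a mouse T cell line derived from thymocytes. Genomic fragments captured on the chosen regions are cloned into the transcribed part of a reporter plasmid, so that an enhancer raises the RNA copies of its own fragment. The measure of activity is the RNA signal of a region relative to its signal in the input. Of the 143 samples in the series, 3 were used: RNA replicates 1 and 2 and 1 input library, all labelled P5424 with no treatment or genotype named. For the input, too, the labels give total RNA as its molecule. Whether each replicate had its own culture or transfection is not stated, so p-values measure only the spread between these libraries, which may be technical. The 140 samples of primary T cells were not used here.

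H3K4me1 marks enhancers whether or not they are in use, and H3K27ac is laid down where co-activators with acetyltransferase activity are bound. Enhancers with RNA polymerase II are often transcribed into short-lived enhancer RNA. A plasmid reporter tests the sequence outside its chromosome, without the nucleosomes, neighbours and promoter it has there.

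Depth differed widely between members. In FPKM, which scales reads to region length and library size, the input ran from 1.06 to 2600 with a median of 19.8. RNA replicate 1 ran from 0 to 7128 (median 15.7) and replicate 2 from 0 to 7541 (median 16.0). Whole reads could be recovered from the steps of the FPKM values, and members had medians of 263 input reads, 251 reads in RNA replicate 1 and 267 in replicate 2. They held 17.1% of all region reads of the input and 15.3% of those of each RNA library. A single member took 8.24% and 8.54% of the members' RNA reads in replicates 1 and 2; it is described among the regions of highest input.

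Most members gave less RNA than their input. The fold, RNA FPKM plus 1 over input FPKM plus 1, had a median of 0.806 in both replicates. In replicate 1 the quartiles were 0.574 and 1.10, and in replicate 2 they were 0.574 and 1.14. Both replicates were below 1 in 1467 members (55.4%) and above 1 in 561 (21.2%), against 50.8% and 27% of all regions. The class named Random had medians of 0.657 and 0.679, which were also below 1.

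An active member was one with a fold of at least 1.5 in both replicates. There were 138, or 5.22% of members, against 8.51% of all regions, 9.36% of the regions of other classes and 6 of 478 Random regions (1.26%). A fold of at least 3 in both was reached by 13 members (0.491%), against 0.985% of all regions and 0 of 478 Random regions, which allows a share of up to 0.628%. When each fold over input was divided by the median fold of the Random class, 1.5 in both replicates was reached by 559 members, and by 26.9% of all regions. At the low end, 202 members (7.63%) stood at a fold of 0.5 or less in both replicates, against 6.79% of all regions. The active share of members was below that of the whole table, and their low share was close to it.

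Among the 138 active members, the mean of both log2 folds corresponded to less than 2-fold in 76, to 2- to 3-fold in 48 and to 3-fold or more in 14. More than 1 in 2 active members were thus under 2-fold. The authors' deposited active class was stricter: in members its lowest active fold was 2.13 in replicate 1 and 2.19 in replicate 2. In the authors' deposited table, 55 members were active in replicate 1, 60 in replicate 2 and 32 in both (1.21%, against 2.7% of all regions). Of the 138 active members, 28 carried the authors' call in 1 replicate only and 78 in neither.

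The replicates shared about 1 in 2 of the members each of them called. A fold of 1.5 was reached by 258 members in replicate 1 (9.75%, against 13.6% of all regions) and by 293 in replicate 2 (11.1%, against 14.6%). The 138 shared members were 53.5% of the first list and 47.1% of the second. For all regions these shares were 62.7% and 58.4%. At a fold of 3 there were 16 and 22 members (0.605% and 0.831%, against 1.27% and 1.57% of all regions). The 13 shared members were 81.2% and 59.1% of those lists, against 77.4% and 62.9% for all regions. Across members the log2 folds of the replicates had a Pearson r of 0.574 and a Spearman rho of 0.559 (n = 2646). Both replicates are divided by the same input library, and members are not independent replicates.

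**Figure D1:**
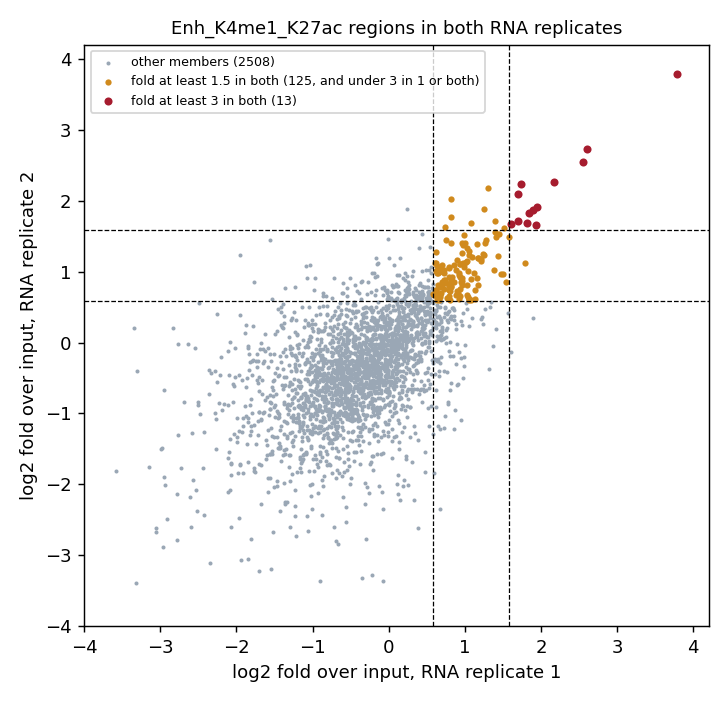
Log2 fold over input of the 2646 members in RNA replicate 1 (horizontal) and replicate 2 (vertical), 1 point per region, with dashed lines at folds of 1.5 and 3. The 138 active members fill the upper right, and of the 13 that reach 3 in both, 1 region stands well beyond the other 12.

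The replicates lay closer together where the input was deeper. Members were divided into 5 bands of input, with medians of 71, 160, 265, 436 and 965 input reads. From the lowest band to the highest, the log2 folds of replicates 1 and 2 differed with an SD of 1.02, 0.86, 0.66, 0.50 and 0.35. In the lowest band 173 of 531 members (32.6%) differed by over 2-fold between replicates, and in the highest 3 of 529 (0.567%). In the lowest band 63 members reached a fold of 1.5 in replicate 1 and 75 in replicate 2, but 21 in both. In the highest band the counts were 49, 60 and 39, so a call in 1 replicate was far more often shared there.

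The 5 members with the largest difference between replicates are the extremes of that spread. On chromosome 19 the region from 46540975 to 46541374 had 139 input reads, but 2 reads in the first RNA library and 204 in the second. Also on chromosome 19, the region from 18677175 to 18677574 went the other way, with 140 and 0 RNA reads over 123 input reads. The others were on chromosome 4 from 154789225 to 154789624 (0 and 134 reads over 38 in the input), on chromosome 3 from 41179325 to 41179724 (117 and 0 over 115) and on chromosome 16 from 35914325 to 35914724 (34 and 417 over 221). Both replicates were affected: 32 members had 0 reads in replicate 1 only and 30 in replicate 2 only. In 20 members 1 replicate had 0 reads and the other at least 50. Reads without molecular identifiers are not independent molecules, so the intervals given for shares cover counting error only.

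The test of each region compared the 2 RNA libraries with the input library in limma, fitted on all 12897 regions and centred on the Random class. The single input was assumed to vary like the RNA libraries. At a Benjamini-Hochberg adjusted p under 0.05, 220 members (8.31%) were higher than the Random level, against 13.5% of all regions. A further 12 (0.454%) were lower, against 0.457%. The balance depends on the centre: 87 members were higher (3.29%, against 7% of all regions) and 33 lower (1.25%, against 1.35%) when centred on all regions. Against the input as deposited 28 were higher (1.06%, against 2.61%) and 19 lower (0.718%, against 0.713%). The limma test without a mean trend called 0 members in either direction, with 275 higher and 50 lower at an unadjusted p under 0.05. Unadjusted counts include regions that pass by chance. Those of all regions are not given here, so the counts are not read as a result about members.

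The number of limma calls rose with depth more steeply than the number of active members. From the lowest input band to the highest, 2, 17, 33, 61 and 107 members were called higher, while 21, 24, 30, 24 and 39 were active by fold. Limma calls by band are not given for the other classes, so the rise is not read as particular to members. Of the 138 active members 108 were called, and they had a median of 393 input reads; the 30 others had a median of 79.5. Another 112 members were called without reaching 1.5 in both replicates, at a median of 678.5 input reads. All 13 members at a fold of 3 were called. Of the 12 called lower, 11 were in the highest input band, and the twelfth was in the fourth band.

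**Figure D2:**
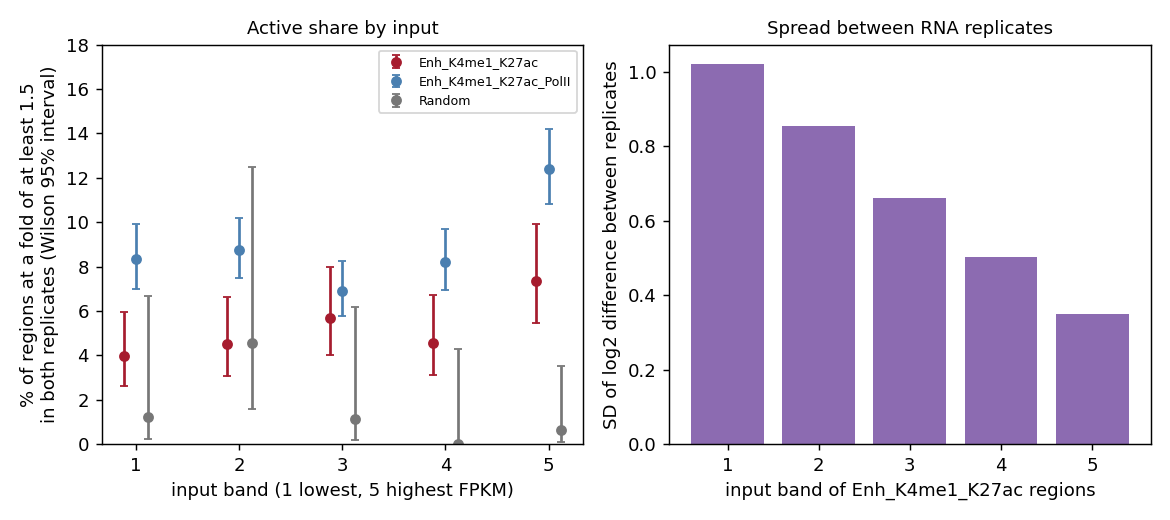
Left, share of regions at a fold of at least 1.5 in both replicates in 5 bands of input FPKM set on the members, with Wilson 95% intervals, for the members, the class with RNA polymerase II and the Random class. Right, SD of the log2 difference between RNA replicates of the members by band, falling from 1.02 to 0.35.

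The highest member, which was also the highest of all 12897 regions, was on chromosome 14 from 32369125 to 32369524. It had 25.3 FPKM in the input, 363 in RNA replicate 1 and 364 in replicate 2, folds of 13.8 in both. The limma log2 fold over the Random level was 4.37 ± 0.19 (SE, adjusted p = 4.88e-10). Like every other member that limma called, it did not pass without a mean trend. Its nearest captured neighbour of the RNA polymerase II class, 23650 bp away, had folds of 1.23 and 0.121.

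Next came the region on chromosome 3 from 134274775 to 134275174, at 97.7 FPKM in the input and 601 and 655 in the RNA replicates (folds 6.10 and 6.64). The region on chromosome 11 from 7045175 to 7045574 had 4.07 FPKM in the input and 28.8 and 28.7 in RNA (folds 5.88 and 5.86). After these came the region on chromosome 10 from 78054125 to 78054524, with 125 FPKM in the input and 563 and 601 in RNA (folds 4.49 and 4.79). In each of these the replicates lay much closer to each other than to the input. Those on chromosomes 3 and 10 rest on 1296 and 1652 input reads and that on chromosome 11 on 54, and the limma standard error was 0.14 for the former and 0.53 for the latter. Adjusted p (limma) was 6.03e-10, 0.000577 and 2.57e-09 in the order given. The region on chromosome 11 did not pass against the input without a centre.

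The fifth, on chromosome 6 from 115920975 to 115921374, rested on only 18 input reads, with 109 and 168 RNA reads (1.36, 6.83 and 10.1 FPKM). Its folds of 3.32 and 4.71 gave an adjusted p of 0.0385 in limma, the highest p of the 12 highest members. With a pseudocount of 0.1 FPKM, centred on all regions or without a centre it did not pass. The sixth was on chromosome 2 from 113733275 to 113733674, at 10.8 FPKM in the input and 44.6 and 43.4 in RNA (folds 3.87 and 3.77). The seventh, on chromosome 19 from 45689925 to 45690324, had 20.8 FPKM in the input and 69.9 and 92.4 in RNA (folds 3.25 and 4.28). The RNA values of all 3 exceeded the input in both replicates by more than the replicates differed.

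The eighth, ninth and eleventh members were windows that overlapped a captured region of the class with RNA polymerase II by 350 bp. They were on chromosome 12 from 82164675 to 82165074 (23.3 FPKM in the input, 89.0 and 87.9 in RNA), on chromosome 15 from 85239675 to 85240074 (26.9, then 99.0 and 98.3) and on chromosome 3 from 35217175 to 35217574 (20.7, then 75.8 and 69.1). Folds ran from 3.22 to 3.70 in these members and from 3.22 to 3.89 in the overlapping regions. In the ninth and eleventh the folds of both windows were identical. The fifth member overlapped such a region too, by 250 bp, with folds of 3.27 and 5.19 in the partner.

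The tenth member, on chromosome 12 from 100645525 to 100645924, had 9.05 FPKM in the input and 37.3 and 30.8 in RNA (folds 3.82 and 3.17). A region of the class with RNA polymerase II lay 300 bp away from it with folds of 0.875 and 0.277. The signal of this member was not seen in its close neighbour. The twelfth, on chromosome 6 from 118884225 to 118884624, was the least even: 19.5 FPKM in the input, 49.7 and 91.6 in RNA (folds 2.48 and 4.53). The tenth and the twelfth did not pass limma without a centre. Of the 12 highest members 4 overlapped a region of the RNA polymerase II class and 7 had none within 10 kb. Of all 2646 members 150 overlapped one, while the nearest lay at 10 to 100 kb for 1106 and beyond for 680.

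**Figure D3:**
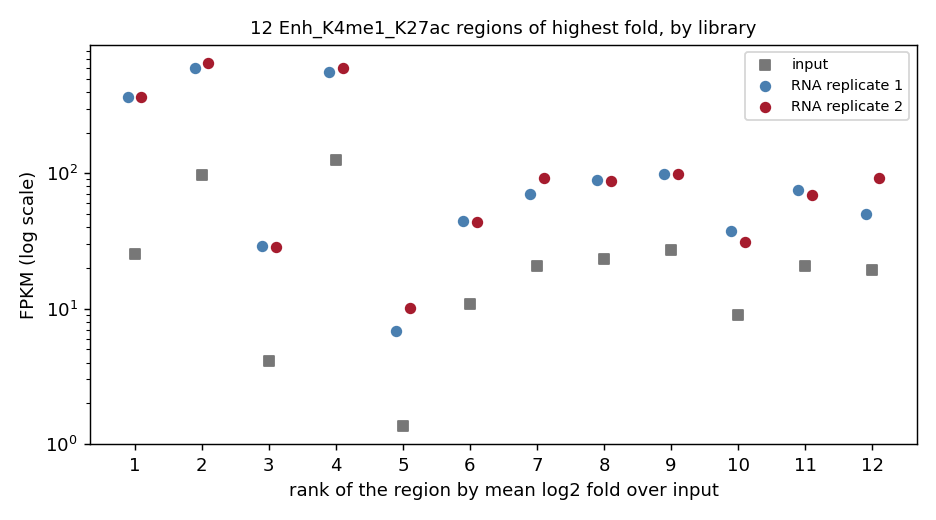
FPKM (log scale) of the 12 members of highest mean log2 fold in the input library and both RNA replicates, ordered by rank. Both RNA points lie above the input point in all 12, and input ranges from 1.36 FPKM for the fifth to 125 for the fourth.

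Of the 5 lowest members, 4 had fewer than 100 input reads. On chromosome 2 the region from 30000175 to 30000574 had 32.7 FPKM in the input and 2.38 and 2.22 in RNA, folds of 0.1 and 0.0958. It was the only 1 of the 5 lowest members that passed limma, with a log2 fold of -2.77 ± 0.74 (SE, adjusted p = 0.018) against the Random level, a call it lost without a centre and in a fit on the 2 ratios. It had 38 and 37 RNA reads, and 433 in the input. The other 4 had 78 to 97 input reads and 0 to 6 RNA reads, so their folds depend on the pseudocount, and none passed limma (adjusted p 0.128 to 0.161), although that on chromosome 15 did without a centre (log2 fold -2.92). They were on chromosome 15 from 74615325 to 74615724 (0 and 1 RNA reads over 90), chromosome 4 from 11814725 to 11815124 (0 and 5 over 97), chromosome 14 from 76979975 to 76980374 (0 and 6 over 97) and chromosome 8 from 113154325 to 113154724 (0 and 0 over 78). Reads were absent from both RNA replicates in 10 members, which had 14 to 78 input reads.

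The 12 members called lower than the Random level ranged in limma log2 fold from -2.77 to -0.60. None of the 12 passed in a fit on the 2 ratios or without a mean trend, where 0 members were called lower (86 and 50 at an unadjusted p under 0.05, limma). Such unadjusted counts include regions that pass by chance. After the region on chromosome 2, the lowest was on chromosome 6 from 22359225 to 22359624. It had 205 FPKM in the input and 35.0 and 38.5 in RNA, and a limma log2 fold of -1.87 ± 0.26 (SE, adjusted p = 0.000102). Its window overlapped a polymerase-class region by 275 bp. This region and the one on chromosome 12 from 79457475 to 79457874 (228 FPKM in the input, 58.2 and 68.0 in RNA) had 2718 and 3018 input reads. Both were singled out after their values were seen.

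The member of highest input lay on chromosome 15 from 74917175 to 74917574. Its input of 2600 FPKM was followed by 7128 and 7541 in RNA, folds of 2.74 and 2.90, and the limma log2 fold was 2.08 ± 0.07 (SE, adjusted p = 4.05e-11). This call was lost without a mean trend. The next 4 by input lay below the input in both replicates. They were on chromosome 16 from 49887975 to 49888374 (741 FPKM in the input, folds 0.624 and 0.575), chromosome 5 from 43715975 to 43716374 (735, folds 0.664 and 0.668), chromosome 13 from 63598525 to 63598924 (518, folds 0.417 and 0.462) and chromosome 3 from 37182775 to 37183174 (439, folds 0.705 and 0.570). The Spearman rho of mean log2 fold with input across members was 0.027 (n = 2646, a description, since input is also the denominator). From the lowest input band to the highest the active share was 3.95%, 4.52%, 5.67%, 4.56% and 7.37%. The member on chromosome 13 was called lower (adjusted p = 0.011, limma), but not in a fit on the 2 ratios or without a mean trend. That on chromosome 16 was called lower only under other centres, with a log2 fold of -0.52 centred on all regions and -0.74 without a centre. Near the member on chromosome 13, a region of the RNA polymerase II class 30750 bp away had folds of 8.46 and 8.01.

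The 3 members of lowest input each had 14 input reads. On chromosome 7 the region from 73844425 to 73844824 had 39 and 0 RNA reads and that from 149470525 to 149470924 had 0 and 56. On chromosome 10 the region from 7915925 to 7916324 had 0 in both. At 14 input reads the replicates did not give a common direction in 2 of the 3.

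Compared with the class that carries RNA polymerase II in its name, members were slightly less active in both replicates. The median log2 fold of members was -0.311 in replicate 1 and -0.311 in replicate 2, against -0.223 and -0.215. The difference, members minus that class, was -0.088 and -0.097 (mean -0.092 ± 0.006, SD, n = 2). Both replicates share 1 input library, so the SDs of class differences here and below leave out the error of the input. In the same 5 bands of input the active share of members was 3.95%, 4.52%, 5.67%, 4.56% and 7.37%, and that of the polymerase class was 8.33%, 8.75%, 6.89%, 8.22% and 12.4%. Members were below it in all 5 bands. The intervals of the third band overlapped (4.00 to 7.98 and 5.75 to 8.23). Regions are not replicates of a class, so in no band do such intervals compare the classes. With 2 replicates an exact permutation test cannot give a two-sided p under 0.5, so these class differences are values without a test.

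Against Enh_K4me1, the class named for H3K4me1 alone, the median log2 fold of members was higher by 0.020 in replicate 1 and 0.006 in replicate 2 (0.013 ± 0.010, SD, n = 2). The active share of that class was 21 of 570, or 3.68% (Wilson 95% interval 2.42 to 5.57), and that of members was 5.22% (4.43 to 6.13). None of the 570 reached a fold of 3 in both, which allows a share of up to 0.526%, and 0.491% of members did (0.287 to 0.839). The intervals of the active shares overlapped, and the bound of 0.526% lay inside the members' interval. Regions are not replicates of a class, so neither fact compares the classes. Against Random, members were higher by 0.295 and 0.248 (0.271 ± 0.033). Random regions with a fold of 0.5 or less in both numbered 57 of 478, or 11.9%, against 7.63% of members.

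**Figure D4:**
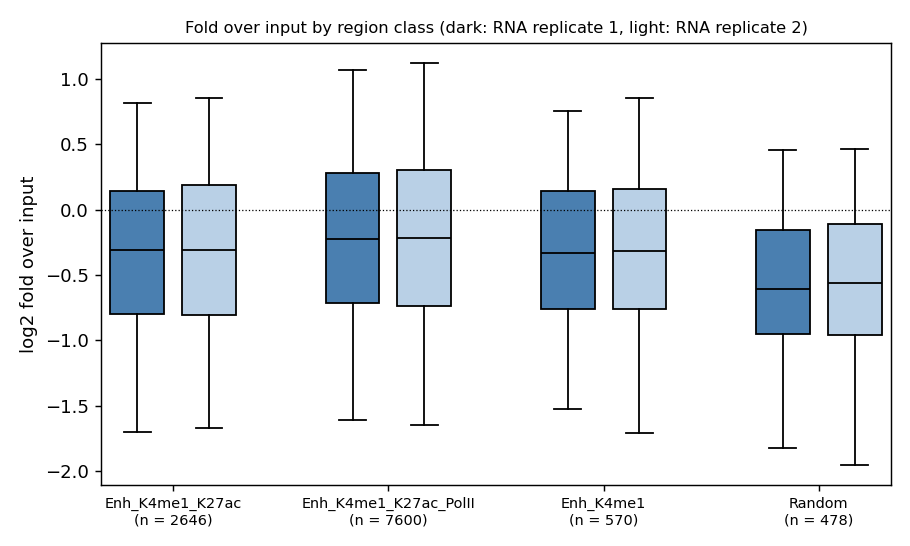
Log2 fold over input in RNA replicate 1 (dark) and replicate 2 (light) for the members and 3 other classes; boxes span the quartiles, lines mark medians and whiskers run from the 5th to the 95th percentile. Members and Enh_K4me1 have nearly the same medians, the polymerase class lies a little higher with a longer upper whisker, and Random lies lowest.

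Position was not used to choose the members. The median gap to the nearest other member was 123200 bp and no 2 members overlapped. The nearest of the 7600 polymerase-class regions lay at a median gap of 28537.5 bp. For the 1100 regions of the promoter class Pro_K4me3_K27ac_PolII the median gap was 499601 bp. The gaps were not adjusted for class size, so they do not compare the classes. The nearest polymerase-class region overlapped 150 members, by 25 to 375 bp with a median of 250 bp.

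Overlapping windows held nearly the same values under both class names. In 54 of the 150 pairs (36.0%) the member and its partner had identical FPKM in all 3 libraries, and 53 of these were among the 104 pairs that shared at least 200 bp. Over the 150 pairs the mean log2 folds had a Pearson r of 0.979, and 16 pairs were active in both windows, 1 in the member only and 2 in the partner only. Among the overlapping members 17 of 150 were active, or 11.3% (Wilson 95% interval 7.2 to 17.4), against 121 of 2496 others, or 4.85% (4.07 to 5.76). Overlapping members also had more input reads, with a median of 443.5 against 257.5. By input band, 1 of 9, 2 of 15, 3 of 32, 6 of 47 and 5 of 47 overlapping members were active. Their shares were 11.1%, 13.3%, 9.38%, 12.8% and 10.6%, against 3.83%, 4.26%, 5.43%, 3.76% and 7.05% of the others. Each band holds few active overlapping members. Whether depth or reads shared between windows had a part in the higher share was not tested.

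The likeness between a member and its nearest polymerase-class region was lost over a short distance. Where the gap was 0 to 250 bp, r was 0.491 over 93 pairs. From there to 1 kb it was 0.055 over 135 pairs, from 1 to 10 kb 0.071 over 482 and from 10 to 100 kb 0.012 over 1106. The median absolute difference in log2 fold rose from 0.01 for overlapping windows to 0.39, 0.54, 0.65 and 0.67 over the same steps. A partner can stand beside several members, and all pairs share the 3 libraries. Whether captured fragments reach into both windows of a close pair was not tested.

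Apart from the overlapping windows, active shares varied little with distance to a polymerase-class region. They were 3.51% for members within 1 kb but without overlap (8 of 228), 5.81% at 1 to 10 kb (28 of 482), 4.61% at 10 to 100 kb (51 of 1106) and 5% beyond (34 of 680). Low members were more frequent far away: a fold of 0.5 or less in both replicates was found in 4.5% of members under 1 kb, overlaps included, 4.98% at 1 to 10 kb, 8.77% at 10 to 100 kb and 9.41% beyond 100 kb. The median fold was 0.881 and 0.864 under 1 kb and 0.789 and 0.772 beyond 100 kb in replicates 1 and 2. These differences between bins were not tested. Distance to a promoter-class region showed no comparable order, with active shares of 4.92% at 1 to 10 kb (3 of 61), 5.75% at 10 to 100 kb (23 of 400) and 5.14% beyond (112 of 2180). Within 1 kb of a promoter-class region there were only 5 members, none active.

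Members seldom lay next to each other, and 1 cluster held more than 1 active member. Joined at gaps of at most 10 kb, 252 members formed 122 clusters, 115 of them pairs, and the largest held 4. In clusters 12 of 252 members were active (4.76%), and outside them 126 of 2394 (5.26%). A single cluster held 2 active members, a pair on chromosome 4 at 106458625 to 106459024 (folds 1.73 and 2.09) and 106460425 to 106460824 (folds 1.55 and 1.51), with a gap of 1400 bp. In the next pairs by the smaller fold, 1 member at most was active. On chromosome 1 the members from 192935025 to 192935424 and from 192938825 to 192939224 had folds of 1.39 and 1.10, and 1.27 and 1.56. On chromosome 5 that from 136567075 to 136567474 had 1.06 and 1.38, and its neighbour from 136577275 to 136577674 had 1.96 and 1.75.

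At gaps of 1 kb or more, neighbouring members did not resemble each other in fold. Over the 109 consecutive pairs at 1 to 10 kb r was -0.096, and over the 576 pairs at 10 to 100 kb it was 0.014. The 21 pairs closer than 1 kb had r = 0.244 and no active member among their 42 regions, which allows a share of up to 7.14%. The median absolute difference in log2 fold was 0.40 in these 21 pairs, against 0.64 at 1 to 10 kb and 0.61 at 10 to 100 kb. The largest cluster, on chromosome 1 between 181490325 and 181511174, held 4 members whose folds ran from 0.349 to 0.666 in replicate 1 and from 0.158 to 0.724 in replicate 2, so none of them was active and all lay below the input.

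**Figure D5:**
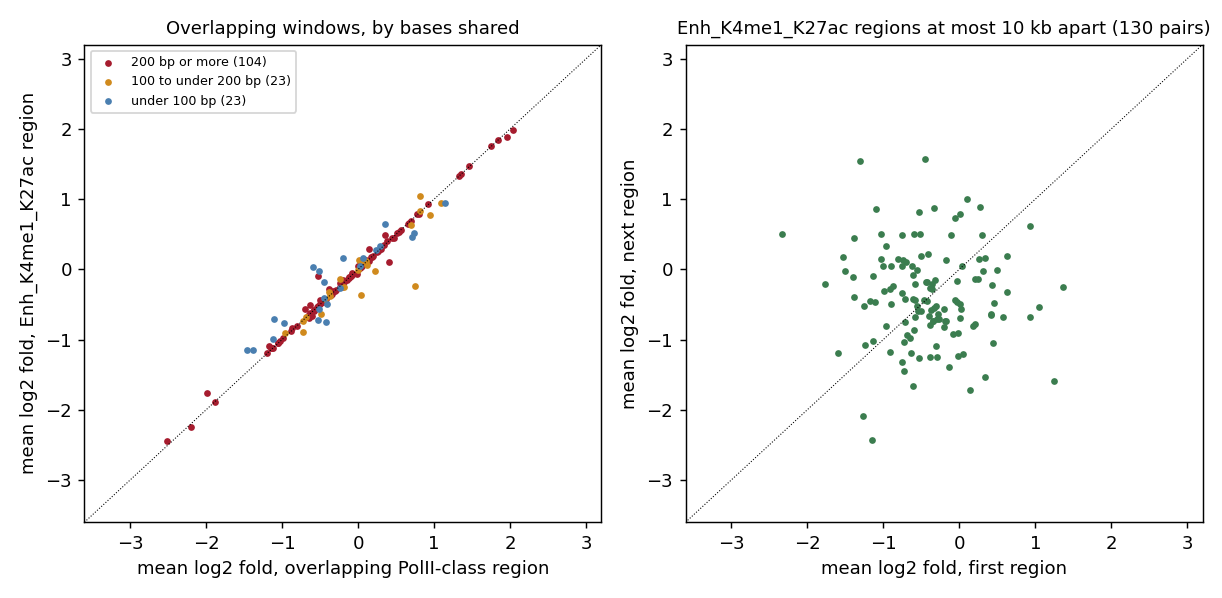
Left, mean log2 fold of a member against that of the polymerase-class region whose window it overlaps, coloured by the bases shared (150 pairs). Right, mean log2 fold of consecutive members at most 10 kb apart (130 pairs). The overlapping windows lie close to the dotted line of equality, and neighbouring members scatter without a trend.

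Active polymerase-class regions were counted near each member. Leaving out overlaps, 41 of the 138 active members had such a region within 10 kb, and 4 of these 41 (9.76%) had an active one. For the other members the counts were 78 of 723 (10.8%). Within 100 kb the shares were 30 of 100 (30%) and 452 of 1834 (24.6%). Of the polymerase-class regions within 100 kb, 38 of 297 (12.8%) were active around active members and 514 of 5857 (8.78%) around the others. The shares lay close together within 10 kb and were higher around active members within 100 kb; neither difference was tested.

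Active members were spread over the chromosomes. Every chromosome with members had at least 2 active ones, with shares from 2.04% on chromosome 8 (2 of 98) to 10.3% on chromosome 5 (14 of 136). Over all regions the active shares of these chromosomes were 9.36% and 10.7%, so on chromosome 5 the members were near the share of all regions and on chromosome 8 below it. The Wilson 95% intervals of the members' shares there, 0.561 to 7.14 and 6.23 to 16.5, overlapped. They cover counting error only, so they do not compare the chromosomes. Chromosome X held 44 members, of which 3 were active. By chromosome, members made up 17.3% to 24.9% of the regions tested.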

How the data were processed

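The authors deposited 1 table per RNA replicate, each with the FPKM of the RNA library and of the input per region, per the file headers. The authors also deposited a fold, a ratio that equals (RNA FPKM + 1)/(input FPKM + 1) to within 4.8e-14. Both tables hold the same input values. The submitters' processing notes give the build mm9 and, with no role stated, TopHat2, Bowtie2 and Bowtie 1.2.2. Filters are not given in the sources used here. Coordinates are as deposited. No region carried a gene name (0 filled) and the gene table at hand is of another build, so regions were not assigned to genes. No genome of the build was at hand, so no sequences were read.

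All values of 400 bp regions were whole multiples of 1 read within 0.1 reads. Summed over regions this gave 8999732 reads (RNA replicate 1), 9583168 (replicate 2) and 7199798 (input). The tables hold FPKM, so no count model was fitted. limma 3.58.1 in R 4.3.3 was run on log2 of FPKM plus 1 over all 12897 regions, 2 RNA libraries against 1 input library, with a mean trend, two-sided, after each RNA library was centred on the median fold of the Random class. The lone input was assumed to vary like the RNA libraries, which leaves 1 residual degree of freedom. The script was checked on simulated data in which the input varied like the RNA libraries, so that assumption was not tested. Gaps are in bases between region ends on 1 chromosome. Shares carry Wilson 95% intervals (scipy 1.17.1). Where no region of a set was called, the share allowed is 3 divided by the number of regions, not a Wilson limit.

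The members and lists were chosen with earlier results of these data known. Named regions were the 12 members of highest mean log2 fold among the active, the 5 lowest, the 5 with the largest difference between replicates, the 5 of highest and 3 of lowest input, the 3 neighbouring pairs with the highest smaller fold, and the largest cluster. Alternatives were a pseudocount of 0.1, an input minimum of 5 FPKM, other centres, no trend, a fit on the 2 ratios, single replicates, the authors' call and other joining gaps; leaving out overlapping windows from the limma fit and from the 1 kb bin was added after the data were seen.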

Additional observations from a re-analysis of the deposited data

How the results depend on the processing

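No paired analysis was possible because a single input library, with no replicate number, serves both RNA replicates. With either RNA replicate left out limma has no residual degrees of freedom, so that test was not made. Members called higher and lower by limma went from 220 and 12 to 87 and 33 when centred on all regions, 28 and 19 with no centre, 0 and 0 with no mean trend, and 506 and 0 in a fit on the 2 ratios, which leaves out the error of the input. At an unadjusted p under 0.05 the last 2 limma fits gave 275 and 50, and 790 and 86. These unadjusted counts include regions that pass by chance, and those of all regions are not given here. A filter at 5 FPKM of input gave 271 and 17 of 2401 members. In the fit on the 2 ratios 19.1% of members were called higher, against 24.6% of all regions. With the filter it was 11.3% against 17.6%. Called lower were 0% of all regions in the fit on the 2 ratios and 0.808% with the filter. Over 99 checks on the 15 named regions that passed limma, 75 kept the call and 24 lost it, 15 of these without the mean trend. Over 100 checks on the 15 that did not pass, 3 gained a call. The 138 active members became 258 to 293 with a single replicate (13.6% to 14.6% of all regions) and 32 with the authors' deposited class (2.7%). They became 559 with each fold divided by the Random median fold (26.9% of all regions). With a single replicate the 13 strongly active became 16 to 22 (1.27% to 1.57% of all regions). The 202 low ones became 460 to 470 (15.4% to 15.8% of all regions). The median difference to the polymerase class was -0.099 with a pseudocount of 0.1, and without either replicate it was -0.097 to -0.088; the differences to Enh_K4me1 and Random were 0.006 to 0.020 and 0.248 to 0.295. With a single replicate the active shares by distance to a polymerase-class region were 12.2% to 12.7% (under 1 kb), 11.2% to 11.4% (1 to 10 kb), 8.32% to 10.6% (10 to 100 kb) and 9.71% to 10.7% (beyond). Without overlaps the share under 1 kb was 3.51%. By distance to a promoter-class region they were 6.56% to 13.1% (1 to 10 kb), 10.2% to 14% (10 to 100 kb) and 9.77% to 10.5% (beyond). Clusters numbered 68 at a joining gap of 5 kb and 221 at 25 kb. The SD between replicates in the lowest input band was 1.88 with a pseudocount of 0.1. Depth limits most the members of that band, where the median input was 71 reads.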
